A study of Mus musculus with 4 samples.

Results

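The 6 Dlx genes of the mouse, Dlx1 to Dlx6, were followed in RNA sequencing libraries of embryonic forelimbs from Shh null embryos and wild-type littermates. The family was taken by gene name, and all 6 members were found among the 17712 genes of the table. Each genotype had 2 libraries of total RNA. The stock is given as Swiss Webster for both genotypes, and the embryos had 33 to 35 somites. The age label reads E10.25 and the source label E10.5. Shh encodes Sonic hedgehog, the signal secreted by the posterior margin of the limb bud, and the labels do not describe the null allele. The design text calls the 2 libraries of a genotype technical replicates, and the number of embryos behind each is not given in the sources used here. The p-values below therefore measure only the spread between libraries, which may be technical.

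Dlx genes encode homeodomain transcription factors related to Distal-less, the fly gene needed for the outer parts of appendages. In vertebrates they lie in convergent pairs, 3′ ends facing, Dlx1 with Dlx2, Dlx3 with Dlx4 and Dlx5 with Dlx6, and the genes of a pair often share enhancers. In the limb bud they are known from the ectoderm and its apical ridge, the epithelium at the distal rim that drives outgrowth. Mice lacking both Dlx5 and Dlx6 fail to maintain the central ridge of the hindlimb and form split hind feet. The libraries here are of forelimbs.

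The libraries held 23206944 and 21489093 reads assigned to genes in Shh null and 29620468 and 18456502 in wild type. Values are CPM, a gene's reads as a share of the library after the authors' scaling for library size and composition, and a single read was worth 0.0351 to 0.0551 CPM. Libraries of 1 genotype were further apart than counting alone gives, at a chi-square per degree of freedom of 14.8 over genes in Shh null and 22.4 in wild type. Shh itself was at 3.15 and 2.42 CPM in Shh null and at 11.4 and 7.88 CPM in wild type, in the direction of the labels (limma, adjusted p = 0.00615, and 0.0693 and 0.0767 without Shh null 1 and without Shh null 2). The libraries also differed in sex-linked transcripts. Xist, transcribed from the inactive X chromosome, was at 522 and 468 CPM in Shh null and 225 and 152 CPM in wild type, and the Y-linked Ddx3y was at 39.1 and 42.3 CPM in Shh null and 119 and 106 CPM in wild type. The part of sex in the Dlx values was not tested.

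Of the family, Dlx3 was higher in Shh null forelimbs and passed the test, 2.31-fold by mean CPM. Dlx5 was 2.43-fold higher but did not pass. Neither Dlx1 nor Dlx2 passed, and their folds of 1.09 and 0.878 lay close to 1. Dlx4 and Dlx6 were too low to be tested, below 1 CPM in every library. The test was limma on log2(CPM + 1), fitted over the 13224 genes with at least 1 CPM in at least 2 libraries, and a gene was called at a Benjamini-Hochberg adjusted p under 0.05. Over all tested genes 328 were called, 2.48%, with 1.24% higher and 1.24% lower. The family thus had 1 called member among the 4 that could be tested. Mean CPM was higher in Shh null for 5 of the 6 members, Dlx2 being the exception, against 52.2% of all genes in the table. For Dlx1 this rested on Shh null 2 alone, and for Dlx4 on Shh null 1 alone. In bulk tissue, more RNA per cell and more cells that express a gene cannot be told apart.

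**Figure D1:**
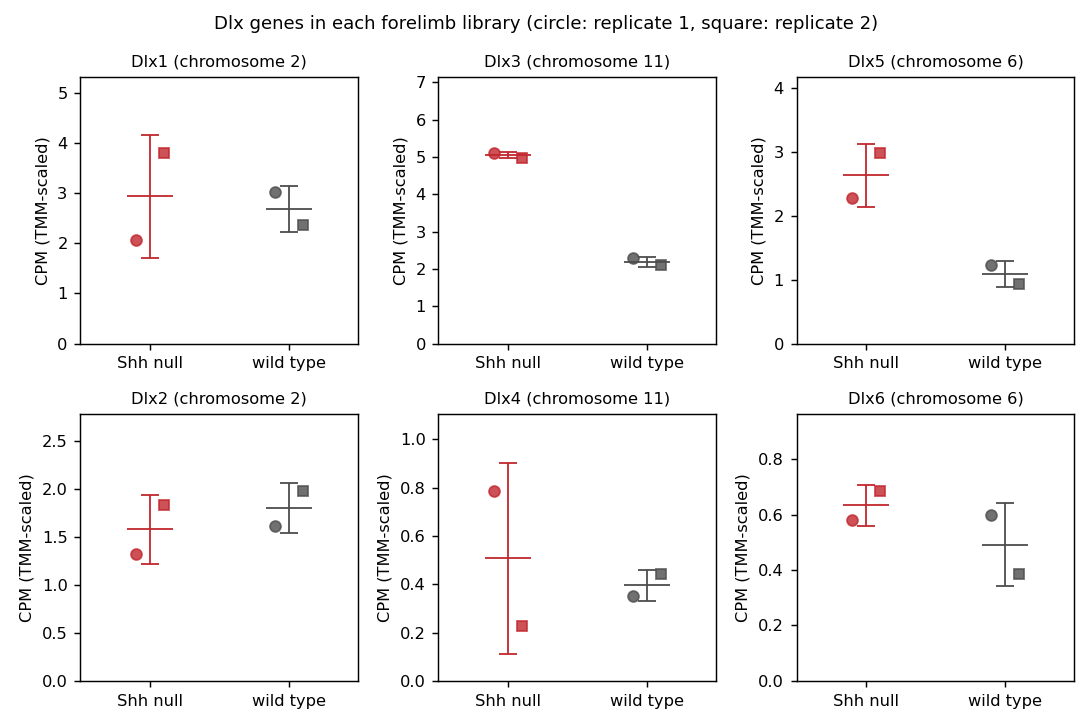
Expression of each Dlx gene in CPM (vertical axes, from 0, each with its own scale) in the Shh null and wild-type libraries; points are libraries, horizontal bars means and whiskers SD (n = 2 each). For Dlx3 and Dlx5 both Shh null libraries lie above both wild-type libraries, and for the other 4 genes the groups overlap.

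Dlx3 (chromosome 11, 95120119 to 95125296, plus strand, mm10) encodes a factor of surface epithelium, placenta, hair and teeth. It was measured at 5.10 and 4.99 CPM in Shh null and at 2.28 and 2.09 CPM in wild type, from 123 and 109 reads in Shh null and 65 and 38 reads in wild type. Both Shh null libraries were high, the 2 libraries of each genotype lay close together, and the groups did not overlap. The groups did not overlap for 2 of the 6 members, both higher in Shh null. Over all genes in the data, 47.3% did not overlap, 24.9% with Shh null higher, and over the tested genes 25.1% did so with Shh null higher, so separation is common in these libraries. The means were 5.04 ± 0.0811 CPM in Shh null and 2.19 ± 0.133 CPM in wild type (SD, n = 2 each). The log2 fold change was 0.92 ± 0.17 (SE; limma, adjusted p = 0.0241) on the log2(CPM + 1) scale, which understates changes of low genes. Over pooled reads the ratio was 2.29, with an exact 95% counting interval of 1.80 to 2.91 that covers counting error only. On the recovered reads edgeR's quasi-likelihood test (adjusted p = 0.0295) and DESeq2 (0.0296), which called 2.45% and 3.98% of tested genes, also called Dlx3 higher. The call ended without Shh null 1 (adjusted p = 0.223), without Shh null 2 (0.114), with quantile normalization (0.0547) and with no filter on low values (0.0660), while the log2 fold change stayed between 0.81 and 1.21 in every setting run. In the authors' deposited table Dlx3 has a log2 fold change of 1.20 and a false discovery rate of 0.00042.

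Dlx4 (chromosome 11, 95140447 to 95146263, minus strand), the partner of Dlx3, lies on the opposite strand, and the ends of the pair face each other across 15.15 kb. It had 0.788 and 0.229 CPM in Shh null and 0.351 and 0.441 CPM in wild type, from 19 and 5 reads in Shh null and 10 and 8 reads in wild type. The Shh null libraries lay on either side of both wild-type libraries, so the groups overlapped. The pooled ratio was 1.35, with a counting interval of 0.704 to 2.65, which holds both no difference and the ratio of 2.29 measured for Dlx3. The counts therefore do not separate Dlx4 from no change or from a change of the size of that of Dlx3. Without Shh null 1 the log2 difference of Dlx4 was −0.18, against 0.09 with all libraries, so its sign rests on that library.

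Dlx5 (chromosome 6, 6877805 to 6882085, minus strand) acts in ridge maintenance and later in bone formation. Its values were 2.28 and 2.97 CPM in Shh null and 1.23 and 0.937 CPM in wild type, from 55 and 65 reads in Shh null and 35 and 17 reads in wild type. As for Dlx3, both Shh null libraries were the high ones and the groups did not overlap. The means were 2.63 ± 0.490 CPM in Shh null and 1.08 ± 0.206 CPM in wild type (SD, n = 2 each), and the log2 fold change was 0.80 ± 0.20 (SE; limma, adjusted p = 0.0728, unadjusted p = 0.00273). The ratio over pooled reads was 2.34, with a counting interval of 1.68 to 3.31. Dlx5 was not called by edgeR (adjusted p = 0.0760) or DESeq2 (0.165), and was called without wild type 1 (0.0383). The authors' deposited table gives a log2 fold change of 1.25 and a false discovery rate of 0.0128 for it. The direction was the same in every setting run, with log2 fold changes of 0.66 to 1.26. Among genes with a mean of 1 to 5 CPM, the range of Dlx3 and Dlx5, 2.41% of 2489 were called and the median SE was 0.20, against 0.14 over all tested genes.

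**Figure D2:**
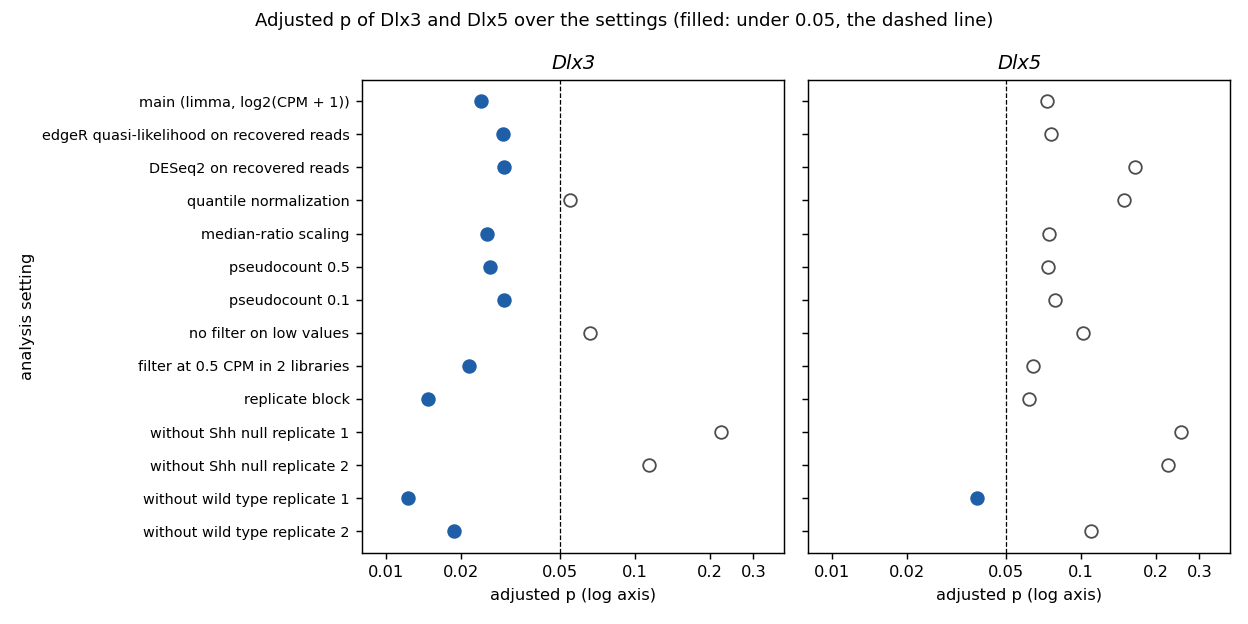
Adjusted p of Dlx3 and Dlx5 (horizontal log axes) for Shh null against wild type in each analysis setting (vertical axis); the dashed line marks 0.05 and filled points lie under it. Dlx3 lies under the line in the main limma fit (0.0241) and above it without either Shh null library, and Dlx5 lies under it only without wild type replicate 1 (0.0383) among the settings shown.

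Dlx6 (chromosome 6, 6863334 to 6868568, plus strand), which acts with Dlx5 in the ridge and the lower jaw, lies 9.236 kb from Dlx5. Its values were 0.581 and 0.686 CPM in Shh null and 0.597 and 0.386 CPM in wild type, from 14 and 15 reads in Shh null and 17 and 7 reads in wild type. The groups overlapped, since wild type 1 exceeded Shh null 1. The pooled ratio was 1.23 with a counting interval of 0.689 to 2.20, whose upper bound lies below the 2.34 of Dlx5, while the 2 intervals overlap. Whether Dlx5 and Dlx6 differ in their response was not tested.

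Dlx1 (chromosome 2, 71528113 to 71533981, plus strand) and Dlx2 (chromosome 2, 71543408 to 71546754, minus strand) are best known for forming inhibitory neurons of the forebrain and patterning the branchial arches. Their ends face each other across 9.426 kb. Dlx1 had 2.07 and 3.80 CPM in Shh null and 3.02 and 2.37 CPM in wild type. The Shh null libraries held both the lowest and the highest value, so the groups overlapped. The log2 fold change of Dlx1 was 0.06 ± 0.24 (SE; limma, adjusted p = 0.920), and its sign turned without Shh null 2, without wild type 2 and with quantile normalization. Dlx2 had 1.33 and 1.83 CPM in Shh null and 1.61 and 1.98 CPM in wild type. These groups overlapped too, and the log2 fold change was −0.12 ± 0.20 (SE; limma, adjusted p = 0.791), with the sign turned without Shh null 1. The counting intervals of the pooled ratios were 0.815 to 1.34 for Dlx1 and 0.640 to 1.24 for Dlx2, both below the lower bound of 1.80 for Dlx3. They cover counting error and not the spread between libraries.

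Upstream sequence bears on these pairs as context. RefSeq promoter windows (build GRCm38.p6, the assembly of mm10) were matched for 2 of the 6 members, Dlx1 and Dlx2, and not for Dlx3, Dlx4, Dlx5 and Dlx6. The Dlx1 window lies in its annotated exons and is not shown. The windows below are the 250 bases before the start of Dlx2 (chr2:71546755-71547004, minus strand), whose RNA did not differ detectably, and the 250 bases before a start of the antisense RNA Dlx6os1 (chr6:6861684-6861933, minus strand), which end 1401 bases from the start of Dlx6 in the locus that holds Dlx5. Capitals mark matches, on either strand, to TAATTA (a core bound by many homeodomains), CCAAT (the CCAAT box), CACGTG (an E-box) or GACCACCCA (the site of the GLI factors of hedgehog signalling), none of which overlapped in these windows.
Dlx2: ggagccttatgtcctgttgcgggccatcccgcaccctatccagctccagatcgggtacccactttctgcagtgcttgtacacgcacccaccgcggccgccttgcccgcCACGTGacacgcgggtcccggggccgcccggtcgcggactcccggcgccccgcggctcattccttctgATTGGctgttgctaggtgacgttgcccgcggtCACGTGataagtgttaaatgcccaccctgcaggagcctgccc
Dlx6os1: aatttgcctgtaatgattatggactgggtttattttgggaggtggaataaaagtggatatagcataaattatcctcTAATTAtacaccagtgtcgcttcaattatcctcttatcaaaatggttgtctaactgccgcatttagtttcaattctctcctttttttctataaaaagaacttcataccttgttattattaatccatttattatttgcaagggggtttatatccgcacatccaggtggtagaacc
The Dlx2 window held 2 matches to CACGTG and 1 to CCAAT, read here as ATTGG, at 66.4% G and C. The Dlx6os1 window held 1 match to TAATTA at 34.0% G and C. Neither held GACCACCCA. Of 32851 RefSeq windows of the same length, 4.84% held TAATTA, 33.8% CCAAT, 6.02% CACGTG and 0.225% GACCACCCA. A match describes the letters only.

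Levels were compared between members per kilobase of annotated exon (CPM per kb). In Shh null the order was Dlx3 (1.93 ± 0.0311), Dlx5 (1.16 ± 0.216), Dlx2 (0.553 ± 0.125), Dlx1 (0.544 ± 0.226), Dlx6 (0.267 ± 0.0314) and Dlx4 (0.156 ± 0.121; SD, n = 2 each). In wild type it was Dlx3 (0.839 ± 0.0509), Dlx2 (0.630 ± 0.0914), Dlx1 (0.499 ± 0.0851), Dlx5 (0.478 ± 0.0912), Dlx6 (0.207 ± 0.0628) and Dlx4 (0.121 ± 0.0194). In Shh null, Dlx2 and Dlx1, and Dlx6 and Dlx4, were neighbours in order that did not differ beyond their spread. The same held for Dlx2, Dlx1 and Dlx5 in wild type. Per kilobase, Dlx3 was thus the most abundant member in both genotypes. Dlx5 ranked directly behind it in Shh null, while its order with Dlx2 and Dlx1 in wild type was not resolved. By mean CPM without division by exon length, Dlx1 was above Dlx3 in wild type, at 2.69 against 2.19 CPM. The summed level of the family was 4.30 and 4.93 CPM per kb in Shh null and 2.90 and 2.65 CPM per kb in wild type. Dlx3 made up 45.5% and 38.8% of that sum in Shh null and 30.2% and 30.3% in wild type. Dlx2 made up 10.8% and 13.0% in Shh null and 19.5% and 26.2% in wild type. As shares of 1 sum, these values are not independent of each other.

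The loci also hold antisense RNAs and flanking genes, 16 of which were in the table and 12 tested. By limma 0 of the 12 were called in either direction, and at an unadjusted p below 0.05 there were 0 higher and 3 lower, where 18.5% of all tested genes passed, 9.5% higher and 9.02% lower. With edgeR 0 were called, and DESeq2 called 1, Asns, lower. The antisense RNA of the Dlx5 and Dlx6 locus, Dlx6as1 (Dlx6os1 in the annotation; Evf2 in the forebrain, where it is made from a Dlx5 and Dlx6 enhancer), had 2.24 and 3.34 CPM in Shh null and 2.18 and 1.38 CPM in wild type. The groups barely separated, and the gene was not called (log2 fold change 0.45 ± 0.23 SE; limma, adjusted p = 0.322). It shares no annotated exonic base with Dlx5 or Dlx6. The other antisense RNAs were below the filter. Dlx1as had 0.373 and 0.686 CPM in Shh null and 0.316 and 0.441 CPM in wild type. Dlx6as2 had 3 and 1 reads in Shh null and 3 and 0 reads in wild type. A730090H04Rik, the antisense RNA of Dlx4, had 0.788 and 0.915 CPM in Shh null and 0.281 and 0.716 CPM in wild type. These 3 share 335, 104 and 79 exonic bases with Dlx1, Dlx6 and Dlx4. The sources used here do not give the strand setting of the counting, so reads of such partners cannot be told apart, and the same holds for reads that match more than 1 of these related genes.

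The protein-coding neighbours set a frame for the loci. Metap1d, 2.918 kb from Dlx1, had 6.64 and 6.54 CPM in Shh null and 7.58 and 6.56 CPM in wild type. Shfm1 (Sem1), a proteasome subunit gene 284.67 kb from Dlx6 in the region linked to human split hand and foot, had 279 and 298 CPM in Shh null and 263 and 287 CPM in wild type, and was not called (limma, adjusted p = 0.749). Asns, which encodes asparagine synthetase, was the flanking gene nearest to a call in limma, at 89.7 and 102 CPM in Shh null and 144 and 124 CPM in wild type (log2 fold change −0.48; limma, adjusted p = 0.0594). Hat1 had 137 and 164 CPM in Shh null and 200 and 189 CPM in wild type (limma, adjusted p = 0.115). Slc35b1 had 68.2 and 65.8 CPM in Shh null and 81.2 and 78.6 CPM in wild type. For these last 3 genes both Shh null libraries were the low ones. The same held for Kat7, at 161 and 156 CPM in Shh null and 168 and 182 CPM in wild type. Tac1 had 2.78 and 2.20 CPM in Shh null and 1.82 and 1.98 CPM in wild type, with both Shh null libraries the high ones. Over all genes in the data 47.3% did not overlap, 24.9% with Shh null higher. Itga6, Acn9, Kat7, Itga3 and Fam117a had log2 fold changes between −0.14 and 0.12, and Tac4 was below the filter.

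**Figure D3:**
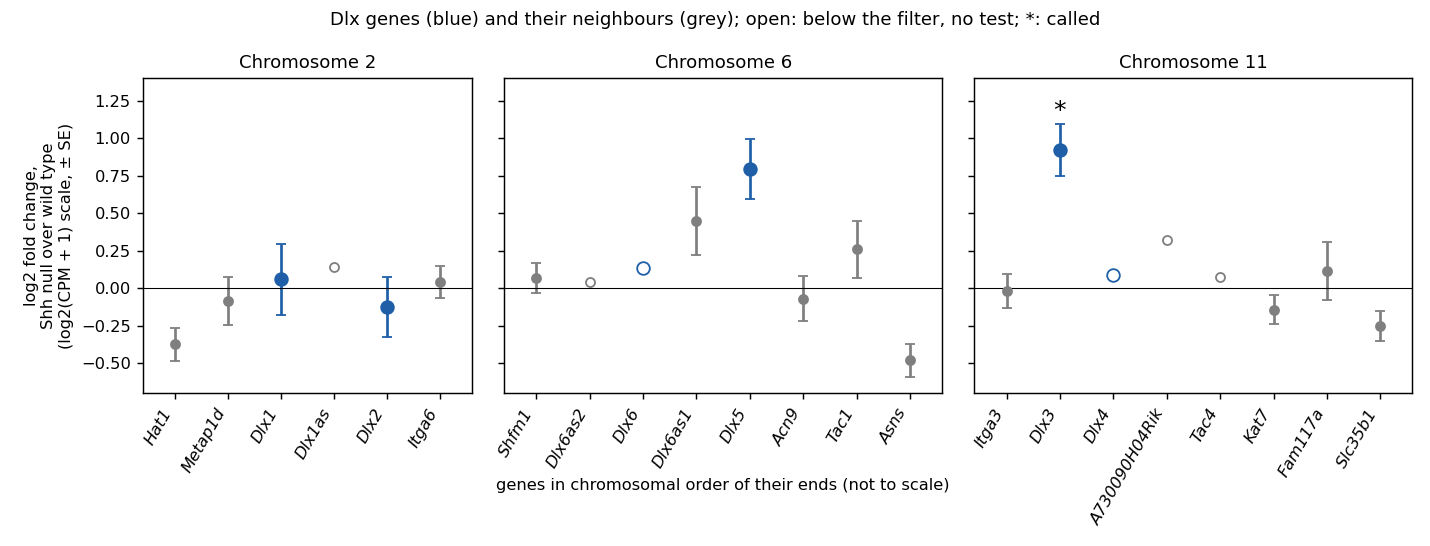
Log2 fold change of Shh null over wild type (vertical axis, log2(CPM + 1) scale, whiskers SE) for the Dlx genes in blue and their neighbours in grey, in chromosomal order of gene ends, which is not to scale; open points were below the filter and have no test. Dlx3 at 0.92 carries the only asterisk, the mark of a call, and Dlx5 at 0.80 is the next highest.

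Dlx3 is an ectodermal gene, so the ectoderm of the libraries is given beside it. All 16 surface ectoderm markers were tested. Limma and edgeR called 0 of them and DESeq2 called 1 higher, while limma's unadjusted p was below 0.05 for 7 higher and 0 lower, against 9.5% of all tested genes in the higher direction. Their median log2 fold change was 0.21, against −0.0005 over all tested genes, and 14 of the 16 were above 0. Their summed level was 560 and 576 CPM in Shh null and 497 and 464 CPM in wild type, so both Shh null libraries held somewhat more. The keratin gene Krt15 had 10.6 and 7.09 CPM in Shh null and 5.69 and 2.64 CPM in wild type, and Wnt6 had 39.3 and 35.2 CPM in Shh null and 26.8 and 18.5 CPM in wild type, neither of them called (limma, adjusted p = 0.109 and 0.0595). The part of ectoderm content in the Dlx values was not tested. Set against that sum, a ratio chosen after the values were seen, Dlx3 stood at 9.10 and 8.66 CPM per 1000 CPM of marker RNA in Shh null and at 4.59 and 4.51 in wild type, a 1.95-fold difference. Dlx5 stood at 4.07 and 5.17 in Shh null and at 2.47 and 2.02 in wild type, a 2.06-fold difference. Of the 13 ridge markers the summed level was 182 and 198 CPM in Shh null and 215 and 190 CPM in wild type, and the groups overlapped. The largest part of that sum was Trp63, also a surface ectoderm marker, at 64.3 and 60.3 CPM in Shh null and 58.0 and 52.1 CPM in wild type. Of the 12 ridge markers tested, 1 was called higher (Jag2) and 3 lower (Fgf4, Fgf8 and Fgf9). Fgf4 passed the filter through wild type alone. Neural crest markers summed to 62.5 and 57.2 CPM in Shh null and 47.8 and 43.4 CPM in wild type, with Sox10 and Foxd3 below 1 CPM throughout. Erbb3 was the 1 called gene among the 5 tested of that list, at 22.8 and 22.0 CPM in Shh null and 13.6 and 11.4 CPM in wild type, a call lost with no filter (limma, adjusted p = 0.0533), and the part of such cells in the Dlx values was not tested. Branchial arch markers summed to 64.7 and 59.8 CPM in Shh null and 52.0 and 56.7 CPM in wild type, with Barx1 and Tbx1 below 1 CPM throughout. Of the 5 tested 1, Hand1, was called higher, a gene that passed the filter through its Shh null libraries alone. This list also holds Dlx6as1, from the Dlx5 and Dlx6 locus, and so is not independent of the family. Of 10 forebrain inhibitory neuron markers 7 were in the table and 3 were tested, limma, edgeR and DESeq2 each called 0, and only Isl1 had an unadjusted limma p below 0.05. Gad1, the gene of a GABA-synthesizing enzyme, was below the filter, at 0.0415 and 0.183 CPM in Shh null and 1.16 and 0.606 CPM in wild type. Gad2 and Nkx2-1 were below 1 CPM in every library, and the list summed to 15.4 and 13.4 CPM in Shh null and 12.7 and 11.4 CPM in wild type. Limb mesenchyme markers summed to 2635 and 2541 CPM in Shh null and 1877 and 2038 CPM in wild type. Of the 12 tested 5 were called higher and 1 lower, against 1.24% of all tested genes in each direction. Of the 5, 3 (Prrx1, Prrx2 and Lhx2) were not called with no filter.

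Genes listed as regulators of Dlx expression were mostly not called. The list held BMP ligands, antagonists, receptors and Smads, Wnt ligands with Ctnnb1 and Lef1, p63, Gata3 and Tfap2a. They were chosen as candidate regulators of Dlx genes, and their action on Dlx genes in these limbs was not tested. Of 19 tested genes 0 were called higher and 2 lower by limma, against 1.24% of all tested genes in each direction. At an unadjusted limma p below 0.05 there were 3 higher and 4 lower, against 9.5% and 9.02% of all tested genes. Here edgeR called 0 higher and 2 lower, and DESeq2 called 1 higher and 2 lower. The median log2 fold change was 0.08. Grem1, a secreted BMP antagonist, fell to 5.56 and 6.04 CPM in Shh null, against 37.9 and 33.6 CPM in wild type (log2 fold change −2.43 ± 0.14 SE; limma, adjusted p = 2.4e-05). Wnt5a, a ligand of distal outgrowth, fell to 51.8 and 54.5 CPM in Shh null, against 88.3 and 89.7 CPM in wild type (log2 fold change −0.73 ± 0.10 SE; limma, adjusted p = 0.00522), and its call ended without Shh null 1 (0.0931). For both genes the groups did not overlap.

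Genes that act with Dlx5 and Dlx6 in the ridge, or are linked to split hand and foot, moved in both directions. Of 18 tested genes 1 was called higher and 3 lower, against 1.24% of all tested genes in each direction. The other 14 were not called, and the median log2 fold change was 0.05. The ridge growth factor genes Fgf4, Fgf8 and Fgf9 were the 3 that fell. Fgf8 was at 5.23 and 10.34 CPM in Shh null, against 30.2 and 21.3 CPM in wild type (log2 fold change −1.65 ± 0.26 SE; limma, adjusted p = 0.0126). Fgf9 was at 1.58 and 2.61 CPM in Shh null, against 9.41 and 5.62 CPM in wild type (log2 fold change −1.44; limma, adjusted p = 0.0179). Fgf4 was at 0.0415 and 0.137 CPM in Shh null, from 1 and 3 reads, against 12.3 and 9.81 CPM in wild type, and passed the filter through wild type alone. Fgf17, below the filter, had 0.539 and 0.183 CPM in Shh null and 1.19 and 0.826 CPM in wild type. Jag2, the Notch ligand of the ridge, rose to 38.8 and 36.5 CPM in Shh null, against 25.3 and 25.5 CPM in wild type (log2 fold change 0.55 ± 0.12 SE; limma, adjusted p = 0.0392). The Fgf8 call ended when Shh null 1 was left out (limma, adjusted p = 0.114). Fgf9 lost its call when either Shh null library was left out (0.232 and 0.0652) and with no filter (0.0586). Jag2 lost its call without either Shh null library (0.306 and 0.115), without wild type 1 (0.0526), with quantile normalization (0.0532) and with no filter (0.0698). Dlx3 and Dlx5 thus lay on the other side of 0 from the ridge FGF genes measured in the same libraries.

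Homeobox relatives of Dlx held genes called in both directions. Of 13 tested genes 4 were called higher and 1 lower, against 1.24% of all tested genes in each direction. The other 8 were not called, and the median log2 fold change was 0.59. Msx2, a BMP-induced homeobox gene of ridge and mesenchyme, rose to 64.4 and 71.2 CPM in Shh null, against 26.1 and 25.0 CPM in wild type (log2 fold change 1.37 ± 0.11 SE; limma, adjusted p = 0.000265). Alx4, of the anterior mesenchyme, rose to 166 and 144 CPM in Shh null, against 64.1 and 68.4 CPM in wild type (log2 fold change 1.21 ± 0.11 SE; limma, adjusted p = 0.000418). Prrx2, of limb mesenchyme, rose to 94.0 and 97.5 CPM in Shh null, against 66.9 and 53.2 CPM in wild type, though the call was lost when either Shh null library was left out (limma, adjusted p = 0.215 and 0.122) and with no filter (0.0514). Gbx2, which passed the filter through wild type alone, fell to 0.871 and 0.915 CPM in Shh null, against 4.21 and 3.53 CPM in wild type, and its call too was lost without either Shh null library (limma, adjusted p = 0.0931 and 0.0577). The steepest rise, of Msx2, exceeded that of Dlx3 on the log2 scale, and the difference between them was not tested.

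Genes known to lie downstream of Dlx proteins in arches, skeleton or forebrain moved both ways. Only 11 of the 20 in the table were tested, of which 3 were called higher, 3 lower and 5 not, with a median log2 fold change of 0.29. Over all tested genes 1.24% were called in each direction. Hand2, which depends on Dlx5 and Dlx6 in the branchial arch and is a posterior gene in the limb, fell to 14.1 and 10.20 CPM in Shh null, against 55.7 and 52.6 CPM in wild type (log2 fold change −2.09 ± 0.15 SE; limma, adjusted p = 0.000132). Hand1 rose to 2.49 and 1.83 CPM in Shh null, against 0.211 and 0.551 CPM in wild type (log2 fold change 1.20 ± 0.22 SE; limma, adjusted p = 0.0218). It passed the filter through its Shh null libraries alone, and its call was lost without either Shh null library (0.254 and 0.0858) and with quantile normalization (0.0575). Alx4 and Gbx2, described above, Runx2 (higher) and Nrp2 (lower) were the other called genes of the list. Several lists share genes and are not independent.

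**Figure D4:**
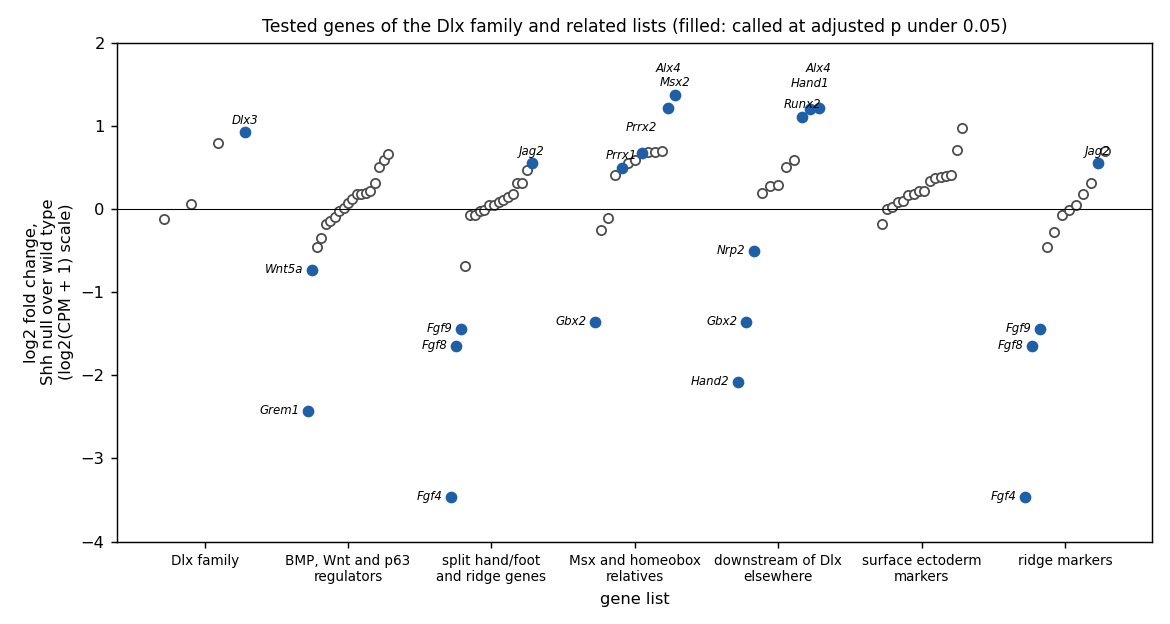
Log2 fold change of Shh null over wild type (vertical axis, log2(CPM + 1) scale) for the tested genes of each list (horizontal axis), sorted within a list; filled points with names were called. Dlx3 at 0.92 is the called gene of the 4 tested Dlx genes, and Fgf4, Fgf8 and Fgf9 are the called genes below 0 among the ridge markers.

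Among the genes whose values were most like those of Dlx3 over the 4 libraries were Dock8 and Cxcl14. Likeness was the root mean square difference of centred log2(CPM + 1) values, which was 0.042 for Dock8 and 0.050 for Cxcl14. The search covered 12359 tested genes, with genes of predicted-type names left out. Dock8, which encodes an activator of small GTPases, had 6.01 and 6.18 CPM in Shh null and 2.77 and 2.81 CPM in wild type. Cxcl14, a chemokine gene, had 28.5 and 29.0 CPM in Shh null and 15.4 and 13.2 CPM in wild type. Within the family Dlx5 was nearest to Dlx3 (0.13), while Dlx4, its partner on chromosome 11, differed by 0.46. Both genes were picked for this likeness, so their own difference between genotypes is a description.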

How the data were processed

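Forelimb RNA libraries, 2 Shh null and 2 wild type, were grouped by the genotype label. Per the submitters' processing notes, build mm10, HTSeq 0.5.4p5, SAMtools, TopHat2 2.0.9 and edgeR 3.4.2 were used; the sources used here give no roles, annotation or strand setting. The authors deposited 1 normalized signal value per gene and library. All values (100%, tolerance 0.001 reads) were whole multiples of the smallest positive value of their column, and TMM factors recomputed from the recovered reads gave the deposited scale, so the signal is TMM-scaled CPM. The authors also deposited a table with a log2 fold change, p-values and false discovery rates, quoted only where named.

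Log2(CPM + 1) of 13224 genes (at least 1 CPM in 2 libraries; 4488 fell below) was fitted with limma 3.58.1 (intensity trend, R 4.3.3), genotype as the only term. Count tests on the recovered reads used edgeR 4.0.16, which called 324 genes, and DESeq2 1.42.0, which called 526. Genotypes of 2 against 2 libraries cannot reach an exact permutation p below 0.333. The steps were tested on simulated data. Coordinates and exon lengths are from GENCODE M21 (mm10). The members and lists were chosen with earlier results of these data known. Named genes are the 6 members, every gene of the antisense and flanking list, up to 4 called genes of each other list with the largest change (the 2 with the largest where fewer than 2 were called), the 3 nearest patterns of each called member, and Shh; Runx2, Nrp2, Prrx1, Lhx2, Fgf17, Gad1, Xist, Ddx3y and the markers below 1 CPM are named beyond this rule. Some genes that the rule or the marker lists hold are not reported here.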

Additional observations from a re-analysis of the deposited data

How the results depend on the processing

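The number of genes called was 164 higher and 164 lower in Shh null. It moved by more than 1.5 times with DESeq2 (253 higher, 273 lower), with no filter on low values (79 and 91), and when a library was left out (15 to 386 higher, 41 to 416 lower). With the replicate block it was 220 higher and 176 lower. Deviations of same-numbered libraries correlated at −0.203 across genes, and the crossed pairing, chosen after seeing the data, called 641 higher and 745 lower. The replicate block changed no Dlx call (Dlx3 adjusted p = 0.0147, limma). Of the Dlx family 1 member was called. That count was 0 with quantile normalization and 0 with no filter, and 0 to 2 when a library was left out (2 without wild type 1). The log2 fold change of Dlx1 turned to −0.065 with quantile normalization. When a library was left out, it ran from −0.26 (without Shh null 2) to 0.38 for Dlx1, also below 0 without wild type 2, and from −0.26 to 0.019 (without Shh null 1) for Dlx2. Among flanking genes it ran from −0.18 to 0.0062 for Metap1d, −0.054 to 0.14 for Itga6, −0.17 to 0.032 for Acn9, −0.068 to 0.028 for Itga3 and −0.20 to 0.44 for Fam117a. The cause was not tested. Fits without 1 library assume that a lone sample varies like the other genotype. Depth limits Dlx4 and Dlx6 most, at 5 to 19 and 7 to 17 reads per library.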
